A study of Mus musculus with 2 samples.

Results

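The cells described here are alveolar macrophages (AMs) with a high summed level of *S100a6*, *S100a4* and *Apoe*, no detected *Marco* and little *Cd63*. A cell barcode was a member when it had at least 500 genes, at most 10% mitochondrial unique molecular identifiers (UMIs, each standing for 1 captured transcript), at least 1000 CPM (UMIs scaled to a total of 1000000, here the total of the cell) for *Apoe*, *S100a6* and *S100a4* together (the program), 0 UMIs of *Marco*, at least 1000 CPM of *Chil3* and under 1000 CPM of *Cd63*. This rule found 1248 members among 13851 filtered cells, 1165 of 7666 in the library from tumor-bearing mice and 83 of 6185 in the control library. Members were chosen by the measured UMIs of these 6 genes in the same cells that are compared below, so every comparison of members with other cells is a description, and none was tested.

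The study asked how AMs change in lungs that carry lung cancer. AMs were sorted by flow cytometry from the lungs of C57BL/6 mice aged 10 weeks, either tumor mice, whose left lung had received implanted murine lung cancer cells, or vehicle controls. The labels name no transgene or deletion in either group, and the sources used here do not say how many mice were pooled. The labels give 1 droplet-based library for each condition, and each table was taken as its labelled condition. The study's methods assigned barcodes to samples by hashtag reads, which were not used here, so a barcode of the other sample within a table would not have been seen. Condition and library cannot be told apart, no p-value was computed, and every interval below is an exact 95% interval that covers counting error only.

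AMs live in the airspace, where they clear surfactant lipid and inhaled particles under the control of GM-CSF, TGF-beta and the transcription factor *Pparg*. Textbook AM genes include the chitinase-like *Chil3*, the scavenger receptor *Marco*, the lectin *Siglecf* and fatty acid binding proteins. Macrophages that enter the lung from blood monocytes, and macrophages found around tumors, are known for other genes, among them *Ccr2*, *F13a1*, *Fn1* and *Spp1*. *S100a6* and *S100a4* encode small calcium-binding proteins, *Apoe* the lipid carrier apolipoprotein E, and *Cd63* a tetraspanin of late endosomes and lysosomes.

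The filtered cells held 68801889 UMIs in the tumor library and 64850143 in the control library. Tumor members had a median of 8159 UMIs per cell, close to the 8292 of the other filtered tumor cells, and control members had 9916 against 10376. The median mitochondrial share was 2.67% in tumor members and 2.44% in the other tumor cells. Both libraries shared 17 barcodes among filtered cells, and 3 of them were tumor members. High doublet scores were given to 46 tumor members (3.95%), against 5.60% of the other tumor cells, and to 0 control members.

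The name of the population was first set beside its genes. In tumor members *S100a6* gave 56.7% of the program UMIs, *Apoe* 23.7% and *S100a4* 19.5%. *S100a6* stood at 1366 CPM of the UMIs summed over cells, the scale of every level below not given per cell, in tumor members and 442 CPM in the other tumor cells, and *S100a4* at 471 and 107 CPM. *Apoe* did not separate them, with 572 CPM in tumor members, 608 CPM in the other tumor cells and 2117 CPM in cells that met the same rule with high *Cd63*. Of the *Apoe* UMIs of the tumor library, 14.0% lay in members, 42.8% in the 733 high *Cd63* cells and 28.0% in 206 cells with the program, no *Marco* and *Chil3* under the limit. The log2 ratio of *Apoe* over the other tumor cells, -0.089, was 0.68 with the high *Cd63* cells left out of these, so its direction depends on the cells compared. The median cell gave another order, at 183 CPM in members and 0 in the other cells. *Apoe* was seen in 62.4% of tumor members, *S100a4* in 73.4%, *S100a6* in 96.1% and all 3 in 41.9%, so most members did not show all 3, and in control members all 3 were seen in 21.7%. The population is therefore called low *Cd63* *S100a6* macrophages here. Of the 1165 tumor members, 51 passed the program limit on fewer than 5 program UMIs.

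*F13a1* and *Spp1*, named as markers of these cells but not read by the rule, behaved unequally. *F13a1*, which encodes the A subunit of coagulation factor XIII, stood at 74.1 CPM in tumor members, 72.0 CPM in high *Cd63* cells and 29.2 CPM in the other tumor cells. The level followed *Marco* as well as the program, with 33.3 CPM in cells under the program limit without *Marco* and 4.58 CPM in cells under the limit with *Marco*. *Spp1*, which encodes osteopontin, stood at 3034 CPM in tumor members against 2360 CPM in the other tumor cells, a log2 ratio of 0.36, and at 6302 CPM in high *Cd63* cells. The high *Cd63* cells are among the other tumor cells, and *Spp1* stood at 1703 CPM in tumor cells of neither population. AM identity genes stayed present in tumor members, with *Chil3* at 9792 CPM (the rule asks for it), *Mrc1* at 714 CPM, *Pparg* at 102 CPM and *Siglecf* at 69.0 CPM. Of the monocyte genes, *Ly6c2* stood at 1.88 CPM in members and 1.72 CPM in the other tumor cells, *Plac8* at 1.18 and 4.24 CPM, and *Ccr2* at 21.2 and 7.07 CPM. A *Ly6c2* UMI was seen in 0.376% of thinned members (0.103% to 0.960%) and 0.221% of the other thinned tumor cells (0.118% to 0.378%).

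Members made up 15.2% of filtered tumor cells (95% interval 14.4% to 16.02%) and 1.34% of filtered control cells (1.07% to 1.66%). Since 0 UMIs of *Marco* is reached more easily in a shallow cell, all cells were also thinned to 3800 UMIs, which left out 729 tumor and 595 control cells. The thinned shares were 15.9% (1100 of 6937) and 1.63% (91 of 5590), with upper bounds of 16.7% and 1.99%. The same cells were not always kept, since 76.6% of the tumor members deep enough to be thinned and 75.3% of the control members still met the rule. The steps of the rule differed in how they divided the libraries. The program limit alone was met by 2326 tumor and 174 control cells, 2104 and 115 of these had no *Marco* UMI, and 1898 and 105 also met the *Chil3* limit. *Marco* was undetected in 90.5% of the tumor cells with the program and in 55.3% of the tumor cells without it.

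Tumor members were next set against the 6501 other filtered tumor cells across 7396 genes with a mean of at least 10 CPM, rule genes left out. Of these, 35 genes (0.473%) were at least 2-fold higher in members and 94 (1.27%) at least 2-fold lower, and the median log2 ratio was 0.01. The other cells included the 733 high *Cd63* cells, and more genes were higher in members without these, as given in the last section. Ranked among 3018 genes with a mean of at least 50 CPM, *F13a1* led with a log2 ratio of 1.34 (1.22 to 1.47). *Hopx*, a homeodomain-only protein gene, stood at 87.6 and 38.2 CPM (1.20), and *Emilin2*, an extracellular matrix glycoprotein gene, at 123 and 58.0 CPM (1.08). *Fn1*, which encodes fibronectin, stood at 1643 and 793 CPM (1.05, 1.02 to 1.08), and at 0.97 when the rule was applied after thinning. In high *Cd63* cells *Fn1* stood at 1366 CPM, and *Hopx* between 80.0 and 92.2 CPM when these cells were binned by *Cd63*. High levels of *Fn1* and *Hopx* were therefore not particular to members. The cytokine gene *Il1b* reached 1121 CPM in members and 612 CPM in the other cells (0.87), and oncostatin M, *Osm*, 918 and 546 CPM (0.75).

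**Figure D1:**
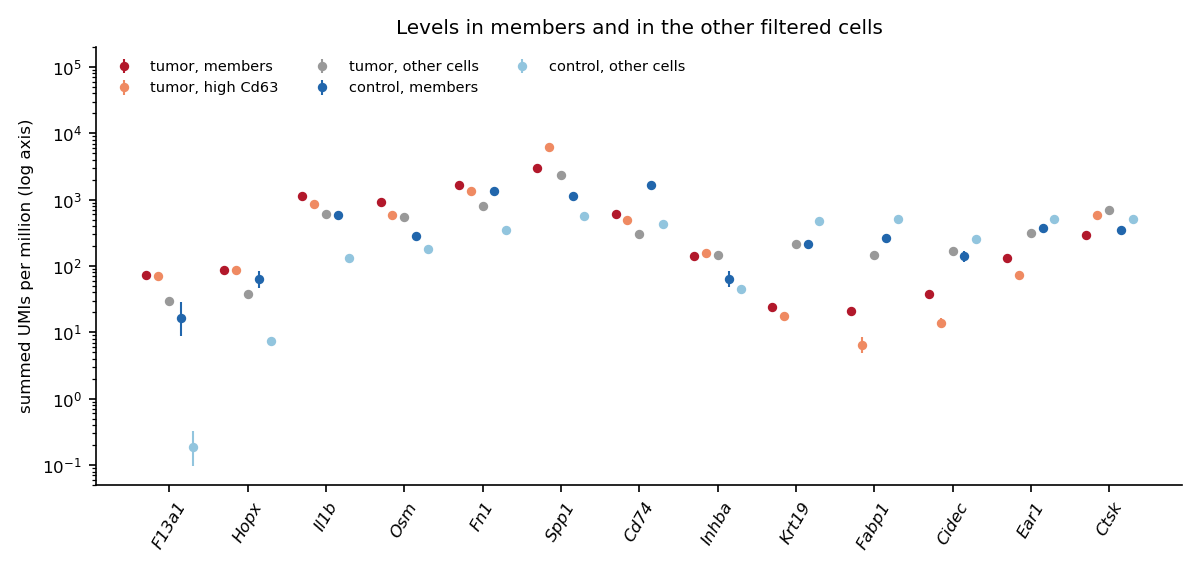
Summed UMIs CPM (log axis) of 13 genes in tumor members, tumor high Cd63 cells, other tumor cells (which include the high Cd63 cells), control members and other control cells, with bars for exact 95% counting intervals. F13a1 sits at 74.1 in tumor members and 29.2 in other tumor cells, while Krt19 sits at 24.5 and 218.

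The genes lower in tumor members reached larger ratios. *Krt19*, a keratin gene that AMs are known to transcribe, stood at 24.5 CPM in members and 218 CPM in the other tumor cells, a log2 ratio of -3.15 (-3.34 to -2.97). *Fabp1*, a fatty acid binding protein gene, stood at 21.03 and 148 CPM (-2.82), and the lipid droplet gene *Cidec* at 37.3 and 170 CPM (-2.19). The cell cycle gene *Ccnd2* stood at 67.8 and 290 CPM (-2.10), and *Flt1*, a VEGF receptor gene, at 33.5 and 123 CPM (-1.87). *Krt79* stood at 104 and 341 CPM (-1.71), *Fabp4* at 140 and 412 CPM (-1.55) and *Ear1*, an eosinophil-associated ribonuclease gene, at 131 and 313 CPM (-1.26). The protease gene *Ctsk* stood at 296 and 705 CPM (-1.25), and the fatty acid receptor gene *Cd36* at 101 and 234 CPM (-1.21). Not all AM genes moved with these, since *Ear2* stood at 798 and 795 CPM and *Mrc1* at 714 and 712 CPM. In high *Cd63* cells *Krt19* stood at 17.4 CPM, *Fabp1* at 6.56, *Cidec* at 14.0, *Ccnd2* at 33.9, *Krt79* at 50.2 and *Ear1* at 72.4 CPM. All of these were lower than in members, so low levels of these genes were not particular to members. *Fabp4*, *Ctsk* and *Cd36* stood higher there than in members, with *Fabp4* at 412 CPM.

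**Figure D2:**
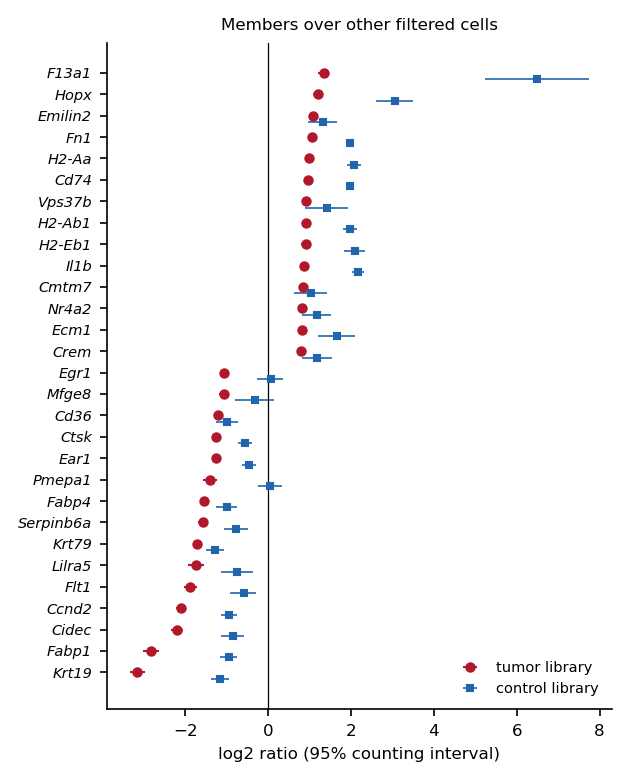
Log2 ratio of members over the other filtered cells for named genes furthest in each direction in the tumor library among those with a mean of at least 50 CPM (circles), with the same genes in the control library (squares) and bars for exact 95% counting intervals. The 14 higher genes shown lie right of 0 in both libraries, and Krt19 lies furthest left in the tumor library at -3.15.

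For the genes that moved together, 250 bases before a transcript start annotated by RefSeq are shown where these data bear on them, from promoter windows on GRCm38.p6, 5′ to 3′ on the strand of the gene. Capitals mark letters of 3 motifs searched on both strands, TGANTCA (AP-1), TTGCNNAA (C/EBP) and TTTC, any 2 bases and TTTC (ISRE), whose letters may overlap. Shown are *F13a1* as the first of the ranked higher genes, *Ctsk*, *Ear1* and *Cidec* as lower genes, and *Isg15* as an interferon gene lower than in high *Cd63* cells. The windows shown for *Ear1* and *Cidec* lie inside their GENCODE genes, and the other 3 lie upstream of theirs. *Cidec* has another window, which ends at the start of its GENCODE gene and holds 0 matches. *F13a1* also has another window, inside its gene, which overlaps exons by 75 bases and holds 0 matches. None of the 5 windows overlaps an exon of GENCODE M21. The windows are chr13:37050245-37050494 (minus strand), chr3:95498960-95499209 (plus), chr14:43819640-43819889 (minus), chr6:113434765-113435014 (minus) and chr4:156200819-156201068 (minus), in that order.
F13a1: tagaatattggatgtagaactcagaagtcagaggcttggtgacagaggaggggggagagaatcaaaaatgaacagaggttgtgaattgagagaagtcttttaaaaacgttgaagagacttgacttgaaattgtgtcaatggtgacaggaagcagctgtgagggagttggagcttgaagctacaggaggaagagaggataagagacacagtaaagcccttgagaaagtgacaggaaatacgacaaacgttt
Ctsk: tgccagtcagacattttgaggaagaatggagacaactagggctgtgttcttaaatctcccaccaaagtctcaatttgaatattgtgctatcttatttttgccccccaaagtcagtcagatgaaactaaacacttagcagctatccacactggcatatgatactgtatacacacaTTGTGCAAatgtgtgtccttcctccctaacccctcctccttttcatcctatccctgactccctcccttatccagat
Ear1: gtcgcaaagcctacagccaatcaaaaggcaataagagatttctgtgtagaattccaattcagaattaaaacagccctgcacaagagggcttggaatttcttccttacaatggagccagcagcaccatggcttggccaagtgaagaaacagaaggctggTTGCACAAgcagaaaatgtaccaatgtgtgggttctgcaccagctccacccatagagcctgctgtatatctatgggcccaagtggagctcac
Cidec: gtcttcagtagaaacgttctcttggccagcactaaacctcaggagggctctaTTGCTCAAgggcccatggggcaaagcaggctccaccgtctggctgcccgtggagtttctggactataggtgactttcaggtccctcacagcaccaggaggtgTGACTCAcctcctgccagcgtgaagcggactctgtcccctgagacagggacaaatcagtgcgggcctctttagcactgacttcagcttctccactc
Isg15: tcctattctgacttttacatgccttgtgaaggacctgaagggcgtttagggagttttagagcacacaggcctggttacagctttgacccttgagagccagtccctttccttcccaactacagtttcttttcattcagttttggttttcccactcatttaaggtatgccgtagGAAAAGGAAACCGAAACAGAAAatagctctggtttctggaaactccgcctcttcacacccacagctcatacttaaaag

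C/EBP letters were found in 9.56% of all 32851 promoter windows of this length, AP-1 letters in 6.75% and ISRE letters in 2.98%. Of the 15 genes lowest in tumor members among those with a mean of at least 50 CPM, 10 had a window and 5 of these held C/EBP letters in at least 1 window (*Cidec*, *Ctsk*, *Ear1*, *Fabp1* and *Lilra5*), beside 10.8% of all genes with a window. Of these 10 lower genes 1 held AP-1 letters and 1 held ISRE letters. Of the 15 highest genes 9 had a window and 0 held C/EBP letters, 1 held AP-1 letters (*Ecm1*) and 1 held ISRE letters (*Emilin2*). Of the 10 genes furthest below high *Cd63* cells 8 had a window and 3 held AP-1 letters, beside 7.82% of all genes with a window. There 1 held C/EBP letters and 1 ISRE letters. The 10 genes furthest above high *Cd63* cells had 5 with a window and 0 with any of these letters. Of 14 type I interferon genes 9 had a window, 5 held ISRE letters and 3 held AP-1 letters. The *Isg15* window held 3 overlapping ISRE matches, all read on the other strand. These matches describe letters in a window, and no binding was measured.

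Read by gene list, of 9 tested genes of the monocyte-derived list 4 were at least 2-fold higher (*Ccr2*, *F13a1* and *Fn1* among them) and 0 lower. The list holds 16 genes, and those with a mean of both groups under 10 CPM were not tested. *Ccr2* passed that filter only through members, while *Plac8*, lower in members, and *Ly6c2* fell under it. The count therefore depends partly on the filter. Over all genes the shares were 0.473% higher and 1.27% lower. The list had a median log2 ratio of 0.54, beside 0.01 for all genes. *Ccr2*, the chemokine receptor of classical monocytes, had a log2 ratio of 1.59. The list of AM identity genes had 0 higher and 8 lower among 26 tested, beside 1.27% of all genes lower, with a median of -0.37. All 6 tested MHC class II genes lay above 0 and 0 reached 2-fold, with a median of 0.92, and *Cd74*, the invariant chain gene, stood at 605 and 309 CPM (0.97). All 9 heat shock genes lay below 0 with a median of -0.23 and 0 reached 2-fold, with *Hspa1b* lowest at 182 and 333 CPM (-0.88). Of 11 heme, iron and NRF2 genes 10 lay below 0 and 1 was at least 2-fold lower. *Hmox1*, the heme oxygenase gene, stood at 485 and 764 CPM (-0.66).

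Of 22 cytokine, chemokine and feedback genes tested 1 (*Il6*) was at least 2-fold higher and 1 (*Ccl2*, at 12.7 and 28.2 CPM) at least 2-fold lower, with 14 above 0 and a median of 0.11. Over all genes 0.473% were at least 2-fold higher and 1.27% lower. *Vegfa*, of the glycolysis and hypoxia list, stood at 53.7 and 24.7 CPM (1.12) and *Il6* at 50.8 and 22.3 CPM (1.19). *Cxcl9*, of the interferon-gamma list, reached 42.5 and 19.8 CPM (1.10), but 84.0% of its member UMIs lay in 5 cells. *Inhba*, the activin A subunit gene that the study is about, did not separate members from the other tumor cells, at 143 and 149 CPM (-0.063). It was seen in 21.3% of thinned tumor members (18.9% to 23.9%) and 20.3% of the other thinned tumor cells (19.3% to 21.4%), and the highest 10% of cells by *Inhba* held 73.7% of its member UMIs. As a measure of free RNA, 0 of 8 thinned tumor cells with fibroblast genes held an *Inhba* UMI. That bounds the background only at 37.5% or less, above both shares, so nothing was read from the shares. The AP-1 gene *Junb* stood at 1947 and 1559 CPM (0.32).

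Detection of *F13a1* was compared after thinning to the same depth. An *F13a1* UMI was seen in 20.6% of tumor members (18.2% to 23.1%), 8.26% of the other tumor cells, 6.85% of control members and 0.0544% of the other control cells. Unthinned, the shares were 35.5% and 13.7% in the tumor library, and 7.23% and 0.131% in the control library. As a measure of free RNA, 0 of 8 thinned tumor cells with fibroblast genes held an *F13a1* UMI, which bounds the share only at 37.5% or less. Their unthinned median depth was 15655 UMIs. *Il1b* was seen in 66.1% of thinned tumor members and 48.2% of the other tumor cells, and in 0 of those 8 cells. *Spp1* was seen in all 8 of the cells with fibroblast genes, so shares of cells with *Spp1* were not read.

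Marker lists of other cell types were summed in tumor members and in the other tumor cells. The 6 fibroblast genes summed to 1.18 CPM in members and 37.8 CPM in the other tumor cells, and the 7 T and NK cell genes to 0.197 and 1.65 CPM. The 7 dendritic cell genes summed to 5.04 and 4.62 CPM with 5 at 0 UMIs in members, and the 5 endothelial genes to 2.27 and 6.72 CPM. The 8 neutrophil genes summed to 131 and 122 CPM, of which *S100a8* gave 112 and 102 CPM, so this list was not near 0, although 5 of its genes, *S100a9* and *Ly6g* among them, were at 0 UMIs in members. Its part in the results was not tested. The 10 interstitial macrophage genes summed to 19.9 and 52.2 CPM, and the complement gene *C1qb* stood at 5.63 and 23.2 CPM.

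Against the tumor cells that had *Marco* and met the *Chil3* limit, 120 of 7441 genes (1.61%) were at least 2-fold higher in members and 144 (1.94%) at least 2-fold lower. *F13a1* stood at 74.1 CPM in members and 8.32 CPM in *Marco* cells (3.16), *Hopx* at 87.6 and 20.3 CPM (2.11) and *Vps37b* at 164 and 42.01 CPM (1.96). *Acaa1b* stood at 6.22 and 99.7 CPM (-4.00) and *Krt19* at 24.5 and 328 CPM (-3.74). The other filtered cells are a different set, but the members are the same in both comparisons.

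The contrast was repeated in the control library, where 83 members carry each value. Among 7450 genes tested, 121 (1.62%) were at least 2-fold higher in control members and 119 (1.60%) at least 2-fold lower. Both counts moved with the program limit, as given in the last section. The interferon-inducible *Ifi27l2a* stood at 222 CPM in members and 41.4 CPM in the other control cells (2.42, 2.19 to 2.64), though 27.3% of its member UMIs came from 1 cell. *Mmp12*, the macrophage elastase gene, stood at 573 and 118 CPM (2.28), with 40.9% of its UMIs in 1 cell. *Il1b* stood at 585 and 130 CPM (2.17), *Fn1* at 1359 and 347 CPM (1.97) and *Cd74* at 1679 and 429 CPM (1.97). Of 6 tested MHC class II genes 5 were at least 2-fold higher, and *H2-Aa* was seen in 45 of the 83 cells. *Spp1* stood at 1154 and 560 CPM (1.04), and under 2-fold, at 0.88, when the rule was applied after thinning. *Apoe*, read by the rule, stood at 393 CPM in control members and 21.1 CPM in the other control cells.

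Several monocyte-type values in control members rested on few cells. *F13a1* stood at 16.7 CPM in control members and 0.187 CPM in the other control cells, on 13 UMIs in 6 cells, of which 1 cell held 46.2%. All 50 *Plac8* UMIs came from 1 cell, and 51 of 52 *Ifitm3* UMIs came from 1 cell. *Hopx* stood at 63.1 and 7.54 CPM (3.07) and was seen in 19 cells. Among lower genes with a mean of at least 50 CPM, *Wwtr1*, which encodes the transcriptional coactivator TAZ, led at 25.8 and 106 CPM (-2.03), followed by the inositol transporter gene *Slc5a3* at 21.9 and 79.8 CPM (-1.86). *Acaa1b*, a peroxisomal thiolase gene, stood at 37.4 and 127 CPM (-1.77). Of 26 AM identity genes 2 were at least 2-fold lower, beside 1.6% of all genes. These were *Krt79* at 206 and 499 CPM (-1.27, and -0.73 after thinning) and *Krt19* at 213 and 474 CPM (-1.16).

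Low *Cd63* members were then compared with the 733 tumor cells that met the same rule with at least 1000 CPM of *Cd63*. The high *Cd63* cells were deeper, with a median of 11113 UMIs against 8159. Of 7245 genes tested, 46 (0.635%) were at least 2-fold higher in members and 51 (0.704%) at least 2-fold lower, with a median log2 ratio of 0.16. Counts moved with the scaling and with the *Cd63* limits compared, as given in the last section. *Fstl1*, which encodes a follistatin-like glycoprotein, stood at 16.6 CPM in members and 138 CPM in high *Cd63* cells (-3.06, -3.30 to -2.82). *Mfge8*, a bridging protein for the uptake of dying cells, stood at 53.9 and 253 CPM (-2.23), and the glycoprotein gene *Gpnmb* at 279 and 974 CPM (-1.80). *Fabp5* stood at 1397 and 3767 CPM (-1.43), *Spp1* at 3034 and 6302 CPM (-1.05, and -0.72 after thinning) and *Apoe* at 572 and 2117 CPM (-1.89). *F13a1* and *S100a6* did not differ beyond counting error, with *S100a6* at 1366 and 1364 CPM.

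Of 14 type I interferon genes tested 14 lay below 0 and 9 were at least 2-fold lower, beside 0.704% of all genes. The median log2 ratio was -1.32. Testing used the mean of both groups, and over the other tumor cells 11 genes of this list were tested. The count of 14 therefore depends partly on the level in high *Cd63* cells. The other tumor cells include the high *Cd63* cells, and over all of these the members had 0 of 11 tested genes of this list past 2-fold. Their median was -0.0013. Over the tumor cells that had *Marco* and met the *Chil3* limit, members had 3 of 11 at least 2-fold higher, beside 1.61% of all genes. All 11 lay above 0, with a median of 0.48. Against the cells outside both populations, the high *Cd63* cells had 12 of 14 at least 2-fold higher, beside 1.79% of all genes. The median was 1.48 there, and this count depends on the same filter. Of members against high *Cd63* cells, *Isg15* stood at 36.8 and 99.5 CPM (-1.43), *Bst2* at 188 and 429 CPM (-1.19, but under 2-fold after thinning) and *Ifitm3* at 39.8 and 144 CPM (-1.85). All 9 MHC class I genes lay below 0 with a median of -0.53, and 0 reached 2-fold. Of 20 lysosomal genes 19 lay below 0, with a median of -0.45. At least 2-fold lower were 2 (*Ctsk* and *Ctsl*), beside 0.704% of all genes. Of 19 lipid genes 4 were at least 2-fold lower, beside 0.704% of all genes, and 14 lay below 0. Among the lysosomal genes, cathepsin D (*Ctsd*) stood at 7218 and 11590 CPM. Of 6 cell cycle genes tested, from a list of 12, 5 were at least 2-fold higher in members, beside 0.635% of all genes. Their median was 1.98. Genes entered on the mean of both groups, and *Mki67* passed 10 CPM only through members, so the count depends partly on that filter. The high *Cd63* cells had 4 of 5 tested genes of this list at least 2-fold lower than the cells outside both populations (median -1.51). Members had 0 of 9 past 2-fold over the other tumor cells (median 0.31). *Stmn1*, a tubulin-binding protein gene, stood at 137 and 39.1 CPM (1.81), and *Mki67* at 36.7 and 8.23 CPM (2.16). The share of thinned cells with an *Mki67* UMI was 4.70% (3.51% to 6.15%) in members and 3.17% (up to 4.77%) in high *Cd63* cells, so the intervals overlapped. A *Stmn1* UMI was seen in 16.6% (14.4% to 19.0%) and 9.24% (7.18% to 11.6%), and these intervals did not overlap, but unthinned the shares were 26.8% and 25.2%. It was also seen in 3 of the 8 thinned tumor cells with fibroblast genes (37.5%), so no difference was read from its shares. *Fpr2*, a formyl peptide receptor gene, stood at 166 and 75.4 CPM (1.14, but under 2-fold in some settings). The 15 immediate early and AP-1 genes had a median of 0.37, beside 0.16 for all genes, and 0 of them reached 2-fold.

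Set against the tumor cells outside both populations, the high *Cd63* cells had 131 of 7303 genes (1.79%) at least 2-fold higher and 206 (2.82%) at least 2-fold lower. *Fabp1* stood at 6.56 CPM in high *Cd63* cells and 172 CPM outside both (-4.71), and *Slamf7*, a lymphocyte activation receptor gene, at 110.5 and 16.3 CPM (2.76). Members had 21.03 CPM of *Fabp1*.

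Across the *Cd63* limit some genes moved step by step and others more sharply, and the depth moved with *Cd63* as well. Cells that met every other step were sorted into bins of *Cd63*, and the median depth went from 6668 UMIs per cell under 250 CPM to 12658 at 2000 CPM or more. *Spp1* went from 1871 to 7708 CPM over the same bins, *Apoe* from 314 to 3541 CPM and *Gpnmb* from 135 to 1548 CPM. The 297 cells just under the limit, at 750 to 1000 CPM, had 3572 CPM of *Spp1* and 753 CPM of *Apoe*, and the 219 cells in the first bin over it had 5207 and 1143 CPM. *Stmn1* went from 305 to 26.5 CPM, with 84.1 CPM just under the limit and 40.1 CPM just over it, and *Mfge8* stood at 73.6 and 168 CPM in these same bins. *Osm* went from 1055 to 386 CPM. *S100a6* stayed between 1311 and 1412 CPM in every bin, and *F13a1* between 59.3 and 78.5 CPM. The part of depth in these trends was not tested.

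**Figure D3:**
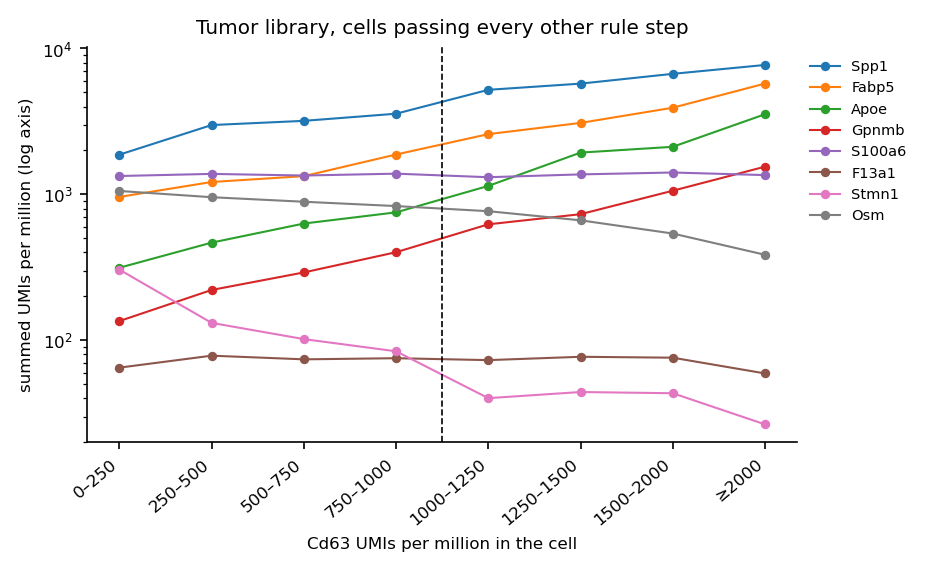
Summed UMIs CPM (log axis) of 8 genes in tumor cells that met every rule step except Cd63, in bins of each cell's Cd63 in CPM. The dashed line marks the limit of 1000, left of which the cells are members, and Spp1 climbs from 1871 to 7708 while S100a6 stays between 1311 and 1412.

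The program limit likewise cut a graded pattern. In tumor cells that met every other step, *F13a1* stood at 15.2 CPM in 1423 cells with under 250 CPM of the program, 56.1 CPM in the next bin and 80.8 CPM in the 217 cells just under the limit, at 750 to 1000. The 199 members in the first bin over the limit had 77.4 CPM. *Krt19* went from 295 to 34.7 CPM below the limit and stood at 26.4 CPM just above it, and *Fn1* went from 602 to 1223 CPM and then to 1473 CPM. *Cd74* was 350 CPM just under the limit and 617 CPM just over it. *Inhba* showed no trend, with 167 CPM in the lowest bin and 149 CPM at 3000 CPM or more.

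**Figure D4:**
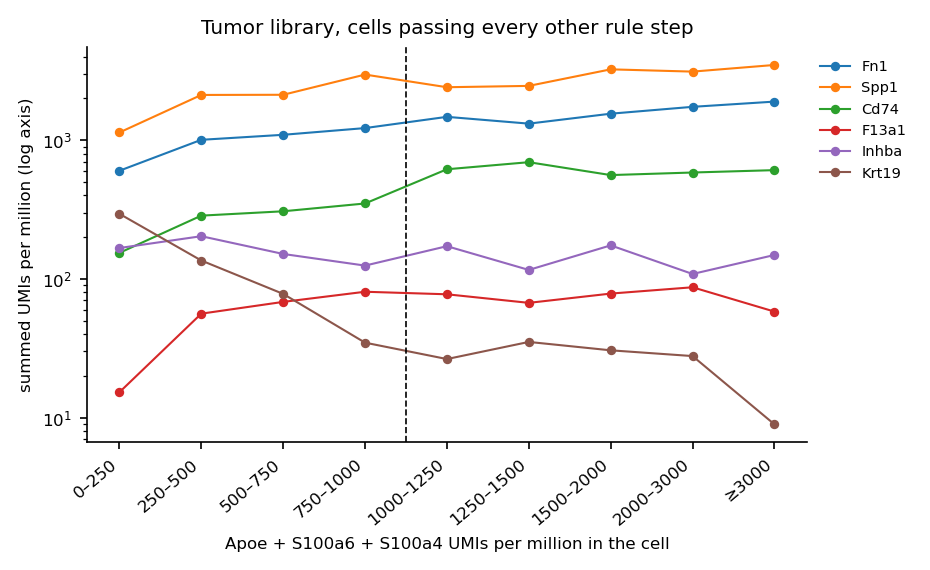
Summed UMIs CPM (log axis) of 6 genes in tumor cells that met every rule step except the program, in bins of Apoe, S100a6 and S100a4 together. The dashed line marks the limit of 1000, right of which the cells are members, and F13a1 is at 80.8 in the bin before it and 77.4 in the bin after it.

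Members of the tumor library were finally set beside the 83 of the control library. Of 7408 genes tested, 194 (2.62%) were at least 2-fold higher in tumor members and 156 (2.11%) at least 2-fold lower. A higher program limit gave more genes each way, as given in the last section. *Ifi27l2a* stood at 777 CPM in tumor members and 222 CPM in control members (1.81, 1.59 to 2.04), *Osm* at 918 and 287 CPM (1.68) and *Spp1* at 3034 and 1154 CPM (1.39). The other cells differed the same way. Their median cell had 842 CPM of *Spp1* in the tumor library and 316 CPM in the control library, and 369 and 87.9 CPM of *Osm*. Whether members differed beyond this was not tested. *F13a1* stood at 74.1 and 16.7 CPM (2.15), on 13 UMIs in the control members. *Vps37b*, an endosomal sorting gene, stood at 164 and 42.5 CPM (1.95), and the chemokine gene *Ccl4* stood at 140 and 50.2 CPM (1.48). *Inhba* stood at 143 and 64.4 CPM (1.15), with 25 of the 50 control UMIs in 1 cell. *Mmp12* stood at 41.1 and 573 CPM (-3.80), with 40.9% of the control UMIs in 1 cell, *Fabp1* at 21.03 and 268 CPM (-3.67), with 24.0% in 1 cell, and *Krt19* at 24.5 and 213 CPM (-3.12). *Cd74* stood at 605 and 1679 CPM (-1.47). Of 6 MHC class II genes 4 were at least 2-fold lower, beside 2.11% of all genes, and 6 lay below 0. Of 10 type I interferon genes 6 were at least 2-fold higher, beside 2.62% of all genes. Both lists differed the same way outside members. The class II list summed to 1291 and 3223 CPM in tumor and control members, and to 751 and 1012 CPM in the other cells. The interferon list summed to 1868 and 796 CPM in members, and to 1685 and 453 CPM in the other cells. *Epcam*, an epithelial adhesion gene, stood at 0.494 CPM, from 5 UMIs, in tumor members and 42.5 CPM in control members.

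**Figure D5:**
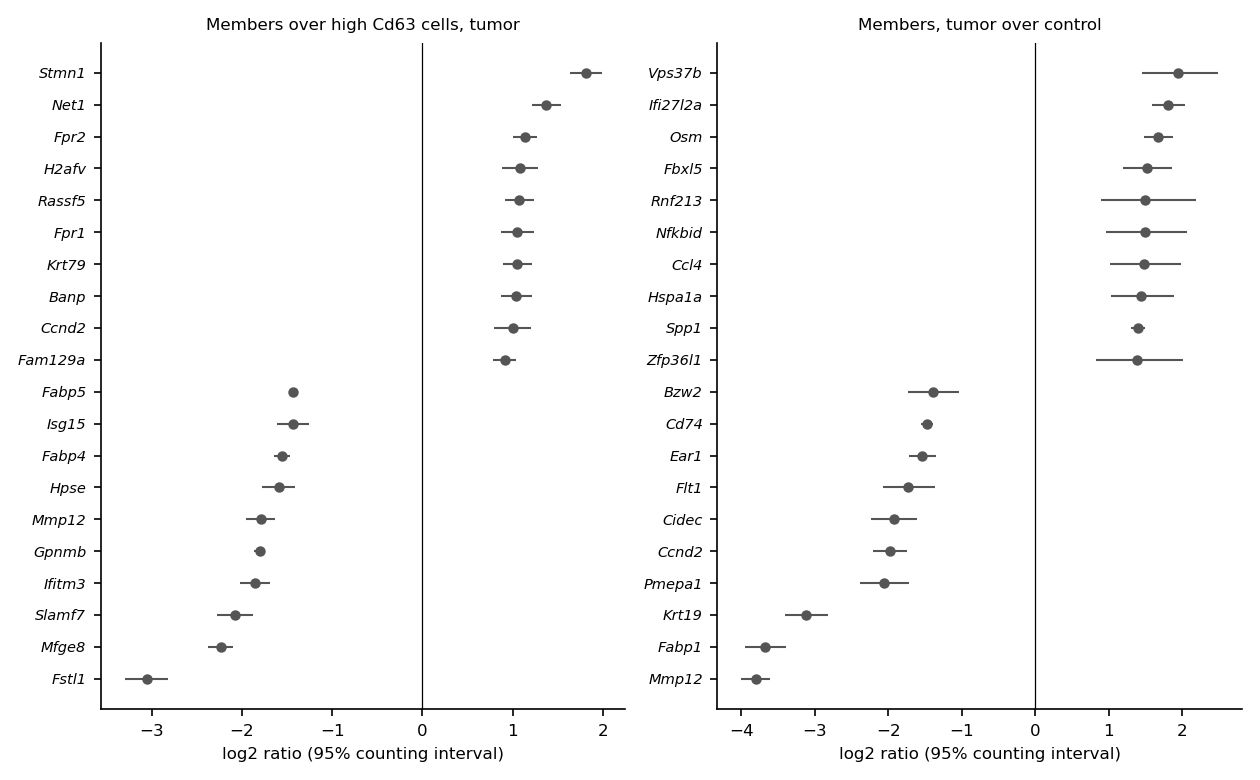
Log2 ratios with exact 95% counting intervals of the 10 genes furthest in each direction among those with a mean of at least 50 CPM, for tumor members over tumor high Cd63 cells (left panel) and for tumor members over control members (right panel). Fstl1 lies furthest left in the left panel at -3.06, and Mmp12 in the right panel at -3.80, where 40.9% of the control UMIs came from 1 cell.

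The members were not uniform among themselves. *S100a6* was the highest of the 3 program genes in 811 tumor members (69.6%), *Apoe* in 235 (20.2%), and *S100a4* was highest or tied in 119 (10.2%). Across the 1165 cells *Apoe* and *S100a6* had a Spearman rho of -0.39, and *S100a6* and *S100a4* of 0.40, as a description across cells of 1 library whose summed program the rule bounds. Of 7331 genes tested, 38 (0.518%) were at least 2-fold higher in *Apoe*-led than in *S100a6*-led members and 23 (0.314%) at least 2-fold lower. *Mfge8* stood at 152 CPM in *Apoe*-led and 27.7 CPM in *S100a6*-led members (2.46), *Mmp12* at 110 and 24.4 CPM (2.17) and the cholesterol exporter gene *Abca1* at 90.6 and 38.3 CPM (1.24). *Car4*, a carbonic anhydrase gene, stood at 19.9 and 104 CPM (-2.38), and *Stmn1* at 36.1 and 131 CPM (-1.86). *F13a1* was seen in 413 of the 1165 members, with 122.7 CPM at the upper quartile and 261 at the 90th percentile of cells. *Fn1* was even, with a median of 1523 CPM and quartiles of 828 and 2357, whereas 71.9% of *Cd74* UMIs lay in the highest 10% of cells.

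*F13a1* lies on chr13:36867178-37050244, *Fn1* on chr1:71585520-71653200, *Krt19* on chr11:100140810-100148665, *S100a6* on chr3:90612882-90624181 and *Cd63* on chr10:128900989-128912822 of GRCm38, all as protein-coding genes in GENCODE M21.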

How the data were processed

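Single-cell RNA sequencing of 2 libraries of sorted AMs, 1 per condition, was analysed. The authors' deposited values are raw UMI counts per gene and barcode. The labels name Cell Ranger 4.0.0, bcl2fastq 2.20 and build mm10, while the methods of the study name a later Cell Ranger release. Of 32285 Ensembl identifiers 32158 were matched to symbols, and 340 of 342 list genes.

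UMIs were summed over cells with numpy 2.4.6, scipy 1.17.1 and pandas 2.3.3, scaled to CPM and compared as log2 ratios with exact conditional binomial intervals of 95%. Levels have exact Poisson intervals and shares exact Clopper-Pearson intervals. A floor for 0 is 3 counts. Genes with a mean of at least 10 CPM were tested for a 2-fold difference, and rule genes were left out. Cells with at least 10 UMIs of fibroblast genes and *Chil3* under 5000 CPM served as background. Scrublet's automatic threshold called 0 doublets in either library, and no barcode was removed as a doublet. Whether doublets were missed was not tested.

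Genes were named by rule: rule and marker genes, those the study names for AMs, the 15 largest ratios each way in the tumor library and the 10 in other comparisons among genes with at least 50 CPM (ribosomal and mitochondrial genes left out), and list genes with high levels or a 2-fold difference. The members and lists were chosen with earlier results of these data known. Ratios and thinning were checked on simulated data. Alternatives changed doublets, filters, depth, limits, scaling and the cells compared. Some genes that the rule names are not reported here.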

Additional observations from a re-analysis of the deposited data

Results flagged for a closer look

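For 14 listed genes the log2 ratio of members over the other filtered cells had opposite signs in the 2 libraries, with both counting intervals away from 0. The differences between libraries were not tested. *Mmp12* stood at -0.60 in the tumor library and 2.28 in the control library, *Apoc1* at -1.09 and 1.36, and *Ifitm3* at -0.49 and 3.95, where 98.1% of the control member UMIs of *Ifitm3* came from 1 cell. In the tumor library *Ifitm3* stood at 39.8 CPM in members and 41.4 CPM in cells that were neither members nor high *Cd63* cells. Its tumor value therefore depends on the high *Cd63* cells, at 144 CPM, among the others. Cell cycle genes had the other order, with *Mki67* at 0.36 and -0.97, *Top2a* at 0.56 and -1.26 and *Ube2c* at 0.43 and -2.93, the last on 3 control member UMIs. The share of thinned cells with an *Mki67* UMI did not follow this order. It was 4.70% in tumor members and 4.60% in the other tumor cells, and 8.22% and 7.81% in the control library. The intervals overlapped in both libraries.

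The other genes moved less. *Lgmn* stood at -0.061 in the tumor library and 0.63 in the control library, *Ctsl* at -0.094 and 0.44, *Il1a* at -0.17 and 0.40, *Slc7a11* at 0.15 and -0.31, *H2-D1* at -0.15 and 0.16, *Anxa2* at -0.0501 and 0.18, *Laptm5* at -0.10 and 0.0798, and *Actb* at -0.058 and 0.052.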

How the results depend on the processing

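No paired analysis was possible because each condition is 1 library, and for the same reason no replicate could be left out. The share of members moved with the program limit, to 21.8% of tumor and 2.46% of control cells at 500 CPM and to 7.42% and 0.550% at 2000, and the tumor share was 16.1% with *Marco* under 200 CPM. It stayed within its counting interval without the highest 6% of doublet scores, with stricter quality and after thinning. Counts of genes past 2-fold depended mostly on the floor. With a mean of at least 50 CPM there were 5 higher and 19 lower in tumor members over the other cells, 28 and 9 in the control library, 9 and 19 against high *Cd63* cells, and 38 and 20 for tumor over control members. With 1 UMI on each side as the only filter these were 984 and 830, 1165 and 601, 806 and 623, and 610 and 1284. Without the high *Cd63* cells among the others, 61 genes were higher in tumor members. For genes in the control library, where the settings were added after seeing the data, a program limit of 500 gave 70 higher and 48 lower, a limit of 2000 gave 297 and 528, and thinning gave 79 lower. Against high *Cd63* cells, the mean of each cell's CPM gave 28 higher and centring on the median 24, and *Cd63* under 500 against at least 1500 gave 251 higher and 147 lower. For tumor over control members, a limit of 2000 gave 491 higher and 281 lower, and the mean of each cell's CPM 237 lower. Causes of these changes were not tested beyond the number of genes and cells each setting admits. Of named ratios past 2-fold none changed sign, but not all stayed past it: 85 of 90 values did in tumor members over the other cells, 81 of 90 in the control library, 94 of 99 against high *Cd63* cells and 80 of 80 for tumor over control members. Among the values under it, not all of which are named here for tumor members over the other cells, was *Fn1*, at 0.97 after thinning and with a program limit of 500. Others were *Krt79* in control members, at -0.71 to -0.89 in 3 settings, and against high *Cd63* cells *Bst2*, at -0.95 after thinning, and *Fpr2*, at 0.86 to 0.98 in 3 settings. *Apoe* in tumor members over the other cells, -0.089, was 0.066 after thinning, 0.47 at a limit of 2000, 0.53 by the mean of each cell's CPM, 0.43 against cells with *Chil3* and 0.68 without the high *Cd63* cells. *Spp1* in control members, 1.04, lay between 0.51 and 0.93 in 6 settings, and against high *Cd63* cells it was -0.72 after thinning.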
